A study of Homo sapiens with 4 samples.

Results

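The regions described here are the widest stretches of the nuclear genome in a map of Argonaute on RNA: all rows on chromosomes 1 to 22 and X that span at least 150 nt on hg19, whatever their score. The rule found 841 regions among 211635 nuclear regions and 211947 regions in all, so 0.397% of the nuclear list was this wide (Wilson 95% interval 0.371 to 0.425%, counting error only). They were chosen by width, the distance between a region's edges as deposited, and width is therefore given as a description. The score, the neighbours and the inner position come from the same pooled reads as the width, so they are described beside the narrower regions and no test is made of them.

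The map was made by PAR-CLIP, in which cells take up a photoreactive uridine analogue, ultraviolet light fixes the RNA to the proteins that touch it, and the RNA bound to one chosen protein is sequenced. HEK293, a human embryonic kidney cell line, gave 4 libraries. In 3 of them AGO1 was taken with an antibody to FLAG from cells that stably carried the protein with a His/FLAG/HA tag, after 16 h in 200 µM 4-thiouridine; in 1 of them AGO2 was taken with the antibody AGO2 11A9 after 16 h in 100 µM. The light was of 365 nm in all 4. The series' design text speaks of tagged lines for both proteins, while the treatment text of the AGO2 library names no tag. The tagged protein adds to the cells' own Argonaute, and the labels do not say whether the AGO1 libraries came from separate cultures. One list of regions was analysed, with no value per library and no statement of which libraries it pools, so each value below is a single value without replicate error, AGO1 cannot be set against AGO2, and the read depth is unknown.

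Argonaute proteins hold a microRNA and use it to find matching messenger RNAs, mostly in 3′ untranslated regions, where they recruit the TNRC6 proteins that lead to deadenylation and decay. One Argonaute protein shields a short piece of RNA, and a single crosslinked site in PAR-CLIP is usually a short region. Longer continuous stretches can hold several sites, or be a whole short noncoding RNA that was recovered from end to end. Which of these holds for a given region was not tested. No hg19 sequence or annotation was used here, so regions are named by position and their bases and genes were not analysed here.

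The wide regions were mostly only slightly above the limit, and a few were very long. Their median width was 178 nt (quartiles 161 and 206, range 150 to 1574), against 32 nt (25 and 43) for the 210794 narrower nuclear regions. Widths of 150 to 174 nt were held by 381 regions, 175 to 199 nt by 211, 200 to 299 nt by 195 and 300 nt or more by 54. The limit cuts through a continuous range. The 14 regions of 149 nt had scores from 14 to 95 with a median of 33, and the 23 regions of 150 nt had scores from 10 to 89 with a median of 23. Just outside, the highest score belonged to chr6:26123883-26124031, minus strand (95); just inside, it belonged to chr10:70101981-70102130, plus strand (89).

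The wide regions held more of the score than of the covered sequence. They held 2.10% of the nucleotides covered by nuclear regions, 167294 of 7975609 nt, and 5.46% of the summed score, 62411 of 1142861. The score is a whole number from 1 to 1000, and what it counts is not stated in the file or the labels. The top value of 1000 was read as a ceiling, because the next score in the list was 925, so sums of scores are lower bounds. The lowest score among the wide regions was 7, the median 49 (quartiles 29 and 82) and the highest 1000. No wide region had a score of 3 or less, which 64.7% of the narrower regions had. A score of at least 100, called high here, was reached by 148 of the 841 (17.6%, 15.2 to 20.3%), against 0.248% of all nuclear regions. Seen from the other side, 28.2% of the 525 high-score nuclear regions were wide (24.5 to 32.2%), and at scores of at least 200 it was 42 of 126 (33.3%, 25.7 to 41.9%).

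Within the wide regions score grew faster than width. Per 100 nt, the median score of the wide regions was 25.6 (binomial 95% interval of the median 24.2 to 26.9), against 8.33 for the narrower ones. Among regions of like score the order was reversed in every score class with wide regions, since a like score was divided by a larger width. At scores of 21 to 50 the medians were 18.3 for wide and 46.7 for narrower regions, and above 100 they were 69.6 and 198. Over the whole list this density did not rise steadily. It was 9.09 at widths of 15 to 24 nt, fell to 6.98 at 32 to 49 nt, and from there rose through 17.6 at 100 to 149 nt and 23.03 at 150 to 174 nt to 43.8 at 300 nt or more. The share of high scores followed the same order within the wide regions, from 8.14% (5.79 to 11.3%) at 150 to 174 nt and 11.4% (7.76 to 16.4%) at 175 to 199 nt to 27.2% (21.4 to 33.8%) at 200 to 299 nt and 74.1% (61.1 to 83.9%) at 300 nt or more. Across the 841 regions Spearman's rho of width and score was 0.457, and that of width and score per 100 nt was 0.225. Over all 211635 nuclear regions the latter was -0.0107. These regions share libraries and often a run, so the correlations describe the list only.

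**Figure D1:**
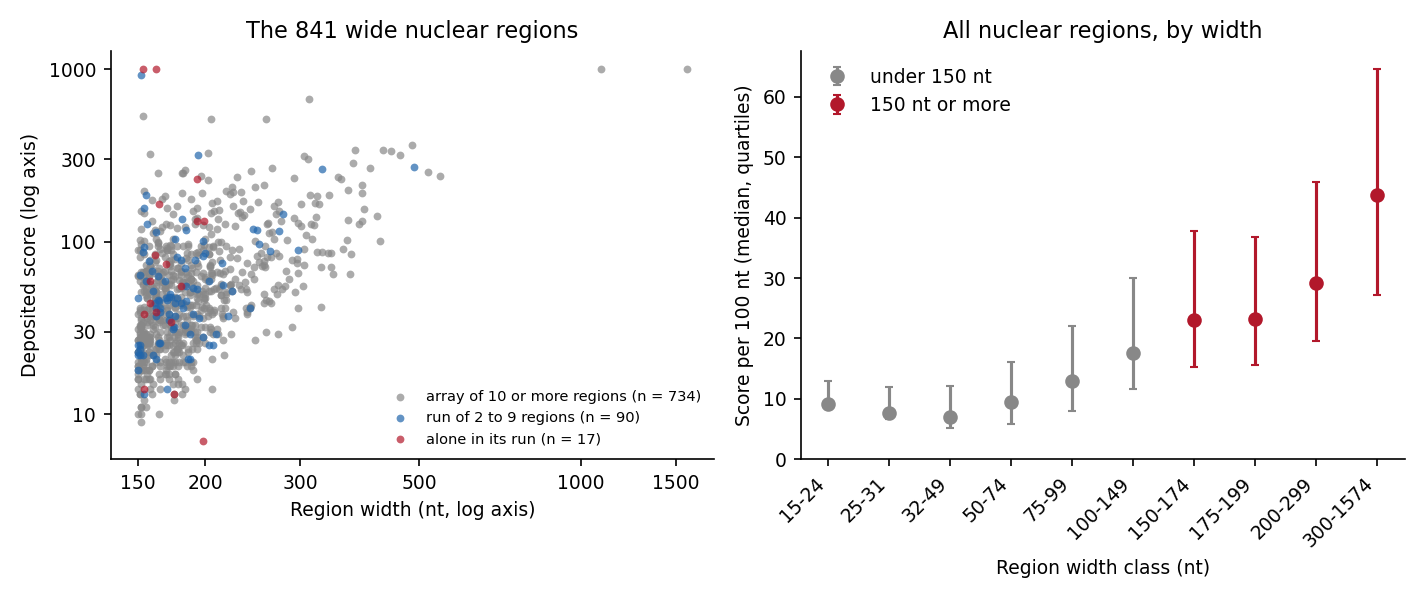
Left, width in nt against deposited score, both on log axes, for each of the 841 wide regions, coloured by the number of regions in their run (regions of a strand joined over gaps of up to 1000 nt). Right, score per 100 nt by width class for all nuclear regions (points, medians; bars, quartiles): the median rises from 6.98 at 32 to 49 nt to 43.8 at 300 nt or more.

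The 2 widest regions lay side by side on the plus strand of chromosome 12 and both stood at the ceiling. One was chr12:1310009-1311582, of 1574 nt, and the other chr12:1312496-1313586, of 1091 nt. Between them lay another wide region, chr12:1311854-1312248, with a width of 395 nt and a score of 155. The run of 16 regions that holds them spanned 5115 nt. Its 13 narrower regions, of 20 to 87 nt, had scores from 1 to 19 with a median of 4, so the 3 wide regions carried 96.7% of the run's summed score. Per 100 nt the 1574-nt region had a score of 63.5 and the 1091-nt region 91.7, both lower bounds. The inner position, a single nucleotide that the deposited list marks in each region, lay 36 nt from the 5′ edge of the first and 364 nt from that of the second.

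Below this pair no wide region exceeded 547 nt. That one was chrX:107963183-107963729 (minus strand, score 242), with no other region of its strand for 310194 nt on its lower side. The next were chr1:226170577-226171096 (520 nt, score 255), chr11:10818599-10819088 (490 nt, score 272) and chr4:174252794-174253277 (484 nt, score 362), all on minus strands. The other 9 of the 15 widest, the 395-nt region above among them, were 392 to 460 nt wide and had scores from 101 to 339. Among the 54 regions of 300 nt or more the lowest score was 42.

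The top score was shared by the widest regions and by compact ones at the narrow end of the rule. Of the 4 wide regions at 1000, 2 were the chromosome 12 pair, and the other 2 were chr5:140098492-140098653 (162 nt) and chr6:27599184-27599336 (153 nt), both on plus strands. Another compact region, of 152 nt, followed at chr5:140105723-140105874, on the same strand, at 925. Per 100 nt these 3 compact regions had scores of 617, 654 and 609, the highest deposited values of the 841, and the next was 350, for chr15:41592671-41592823 (plus strand, 153 nt, score 535). The values of the 4 regions at the ceiling are lower bounds, so their true place in this order is not known. Both chromosome 5 regions had their inner position 56 nt from the 5′ edge. On their own strand these 3 compact regions were also sparsely surrounded. No other region of the strand touched the 500 nt on either side of the chromosome 6 region or of the first chromosome 5 region. For the second, 4.4% of the flanks were covered.

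Most other regions among the 10 densest lay in arrays. They included chr7:108214643-108214847 (205 nt, score 516, or 252 per 100 nt), chr8:37556230-37556541 (312 nt, score 676, or 217), chr5:71503183-71503340 (158 nt, score 324, or 205) and chr12:12874028-12874286 (259 nt, score 513, or 198), all on plus strands. An exception was chr12:49521564-49521757 (minus strand, 194 nt, score 319, or 164), in a run of 7 regions with 7.4% of its flanks covered. At the low end, chr7:68527466-68527663 (plus strand, 198 nt) had a score of 7, or 3.54 per 100 nt, and lay 141554 nt from the nearest region on its strand. The next lowest, chr5:76359537-76359688 (plus strand, 152 nt), had a score of 9, or 5.92 per 100 nt, inside an array of 11 regions. Between the densest and the sparsest wide region the score per 100 nt thus ranged from 3.54 to 654.

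Nearly all wide regions had close neighbours on their own strand. Another region lay within 100 nt for 786 of 841 (93.5%, 91.6 to 94.9%), against 53.4% of all nuclear regions, and within 20 nt for 596 (70.9%, 67.7 to 73.8%), against 26.3%. The gap on both sides was at most 20 nt for 193 (22.9%, 20.2 to 25.9%), against 4.12%. The median gap was 24 nt on the 5′ side and 22 nt on the 3′ side, so neither side was the emptier. Of the 500 nt on each side of a wide region, other regions of the same strand covered a median of 43.5% (41.8 to 45.3%), against 7.2% around the narrower regions. Regions of 100 to 149 nt lay between, with 33.9% (32.7 to 34.8%). Close neighbours were also less frequent for them than for wide regions, and more frequent than for all nuclear regions. Of the regions of 100 to 149 nt, 87.1% had another region within 100 nt, 57.6% within 20 nt, and 16.0% within 20 nt on both sides.

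Arrays, here runs of at least 10 regions of 1 strand with gaps of up to 1000 nt, held 734 of the 841 (87.3%, 84.9 to 89.4%), against 40.4% of all nuclear regions. With gaps of up to 100 nt only, 46.5% of the wide regions were in such arrays. The share of all nuclear regions at that gap is not given here, so this value describes wide regions only. Only 17 wide regions were alone in their run (2.02%, 1.27 to 3.21%), against 22.8% of all nuclear regions. Only 4 (0.476%) had no other region within 10000 nt on their strand, against 8.34% of the narrower regions. In these shares, regions of 100 to 149 nt were more like the wide regions than like the whole list. Of them, 78.2% were in arrays, 3.39% were alone in their run and 0.679% had no other region within 10000 nt.

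The crowding was also seen among regions of like score. At scores of 21 to 50, 85.5% of 346 wide regions lay in arrays (81.5 to 88.9%), against 62.1% of 5693 narrower regions (60.9 to 63.4%), and the median cover of the flanks was 41.4% against 22.4%. At scores of 51 to 100 the shares were 88.8% of 260 and 59.3% of 1087, and the flank covers 46.7% and 22.4%. Above 100 they were 85.1% of 148 and 48.4% of 370, and 48.5% and 15.8%. Within each of these score classes the intervals of wide and narrow regions did not overlap. The intervals count regions as independent, although many share a run, so this describes the list and is no test. Narrow regions of scores above 100 were more often alone in their run (12.2%) than wide ones (4.05%).

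**Figure D2:**
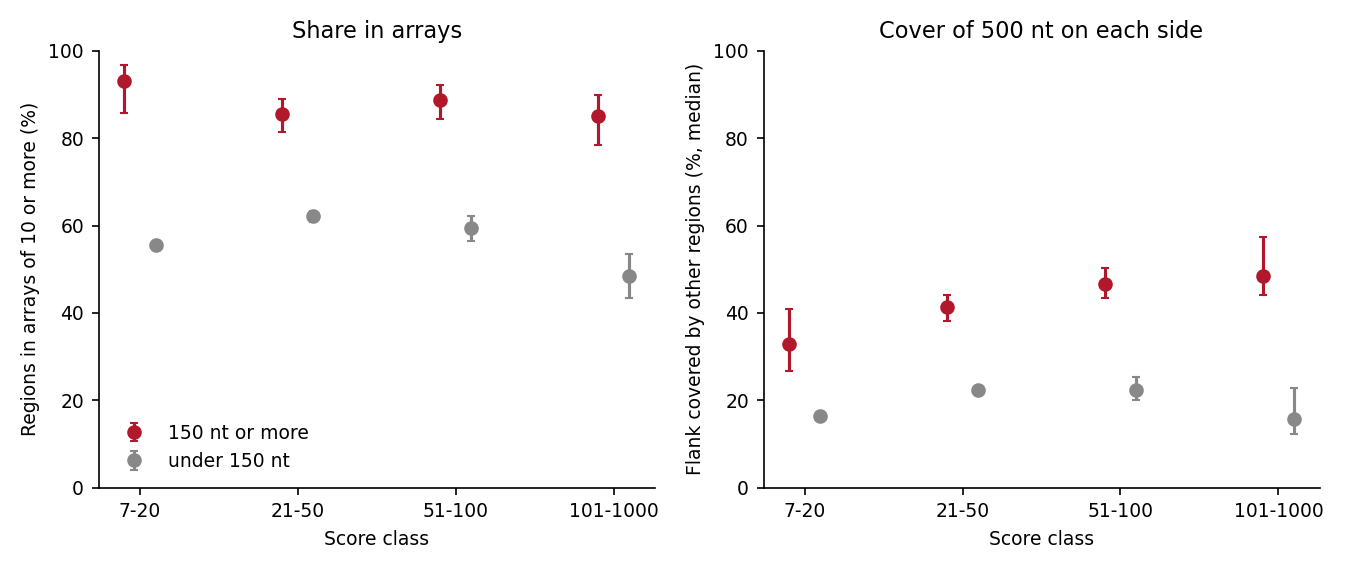
Wide and narrower nuclear regions of like score, by score class. Left, the share in arrays of at least 10 regions with Wilson 95% intervals; right, the median share of the 500 nt on each side covered by other regions of the strand, with its binomial 95% interval. Wide regions lie above narrower ones in all 4 classes, at 85.1 to 93.1% in arrays.

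Arrays with a wide region were fuller than other arrays. There were 501 of them, 11.6% of the nuclear arrays. They held a median of 25 regions over 3738 nt, of which regions covered a median of 42.0% (quartiles 32.1 and 54.3%). The 3816 arrays without one held a median of 15 regions over 2770 nt, with a cover of 24.2% (17.5 and 33.4%). A wide region adds to the cover by its own width, so these covers are not independent of the rule. The median region score of an array was 5 at the median of the first kind and 3 at that of the second.

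Inside the 501 arrays the wide regions were usually among the strongest members, and less often the densest one. They were 4.90% of the regions, 17.7% of the covered nucleotides and 29.1% of the summed score. A wide region held the top score, ties included, in 314 of the arrays (62.7%), and 578 of the 734 (78.7%) were among the top 3 scores of their array. These arrays were chosen for holding a wide region, and score rises with width over the nuclear list (Spearman's rho 0.452). The score ranks are therefore not independent of the rule. By score per 100 nt, a wide region led in 75 arrays (14.97%). The median density of the wide regions was 25.3 per 100 nt, against 10.3 for the 14245 narrower regions of the same arrays. A shorter region of higher density was thus present in most arrays, although the typical short region was sparser. Narrower regions far outnumbered wide ones there, so a narrower leader by density does not show that wide regions were sparse.

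Along an array, from its 5′ to its 3′ end on the strand, the wide regions were spread almost evenly. With the array cut into 5 equal parts, these held 17.7%, 19.3%, 21.1%, 20.2% and 21.7% of them, with a mean place of 0.522 on a scale from 0 at the 5′ end to 1 at the 3′ end. The narrower regions of the same arrays held between 19.5 and 20.5% in each part. The part at the 5′ end, at 17.7% (15.1 to 20.6%), was the lowest for wide regions, and its interval includes the value of the narrower ones. A wide region has its centre at least 75 nt from the ends of its array, which takes it away from both ends.

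The 841 regions lay in 605 runs. A single wide region was found in 459 runs, while 146 runs with at least 2 held 382 of them (45.4%). The 9 runs with 5 or more held 61. A wide region was followed directly by another in 5.83% of cases, and a narrower region was followed by a wide one in 0.376%. The 49 such pairs had a median gap of 10 nt, from 1 to 7069 nt, and 29 of them were at most 20 nt apart. No 2 nuclear regions of a strand touched or overlapped, and the smallest gap was 1 nt. Whether wide regions so close together are separate stretches of RNA was not tested.

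The run with the most wide regions was a near-continuous band. In the run chrX:24001820-24007146 (minus strand), 12 of 28 regions were wide. Their widths ran from 177 to 460 nt with a median of 297.5, and their scores from 67 to 342 with a median of 128.5. Their 16 narrower companions had scores from 2 to 117 with a median of 36.5. The 12 wide regions filled 67.2% of the 5327 nt and held 76.2% of the summed score of 3022, and no gap in the run was above 36 nt. Of the 12, 10 had a score of at least 100. From the 5′ end, the scores of the wide regions were 132, 249, 342, 113, 300, 96, 120, 102, 339, 318, 67 and 125. The 5 values above 200 were thus spread along the run, and lower ones stood among them. Regions joined over gaps of up to 20 nt formed the longest block of the nuclear list within this run, chrX:24004439-24006489 with 2051 nt, holding 12 regions, 4 of them wide.

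Other runs with many wide regions were built differently. In chr8:37553301-37557637 (plus strand), 8 of 25 regions were wide, and they began only 1614 nt from the 5′ end of the run. Their scores ran from 27 to 676 with a median of 85.5, and they held 84.1% of the run's summed score; 1 region of 312 nt with the score of 676 stood far above the other 7. Among the narrower regions there the median was 4. In chr12:98925459-98929405 (plus strand), 8 of 30 regions were wide, with scores from 51 to 198 and a median of 81. The first began 1176 nt from the 5′ end and the last closed the run at its 3′ end. Its narrower regions had a median score of 4.5.

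The run with the most regions in the nuclear list had the opposite build. In chr19:57802074-57819928 (plus strand), 8 of 174 regions were wide, scattered over 17855 nt. Their scores were modest, from 33 to 94 with a median of 59, and they held 17.5% of the summed score of 2896. The highest score there, 225, belonged to a narrower region. Among the runs with 5 wide regions, chr8:42977257-42987279 (plus strand) was also of this kind. It held 5 wide regions of 88, with scores from 13 to 72, and these took 17.5% of the summed score. Runs with fewer wide regions could be built so too, such as chr17:27582938-27591607 (minus strand), with 4 wide of 76 regions and 16.0% of the score.

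**Figure D3:**
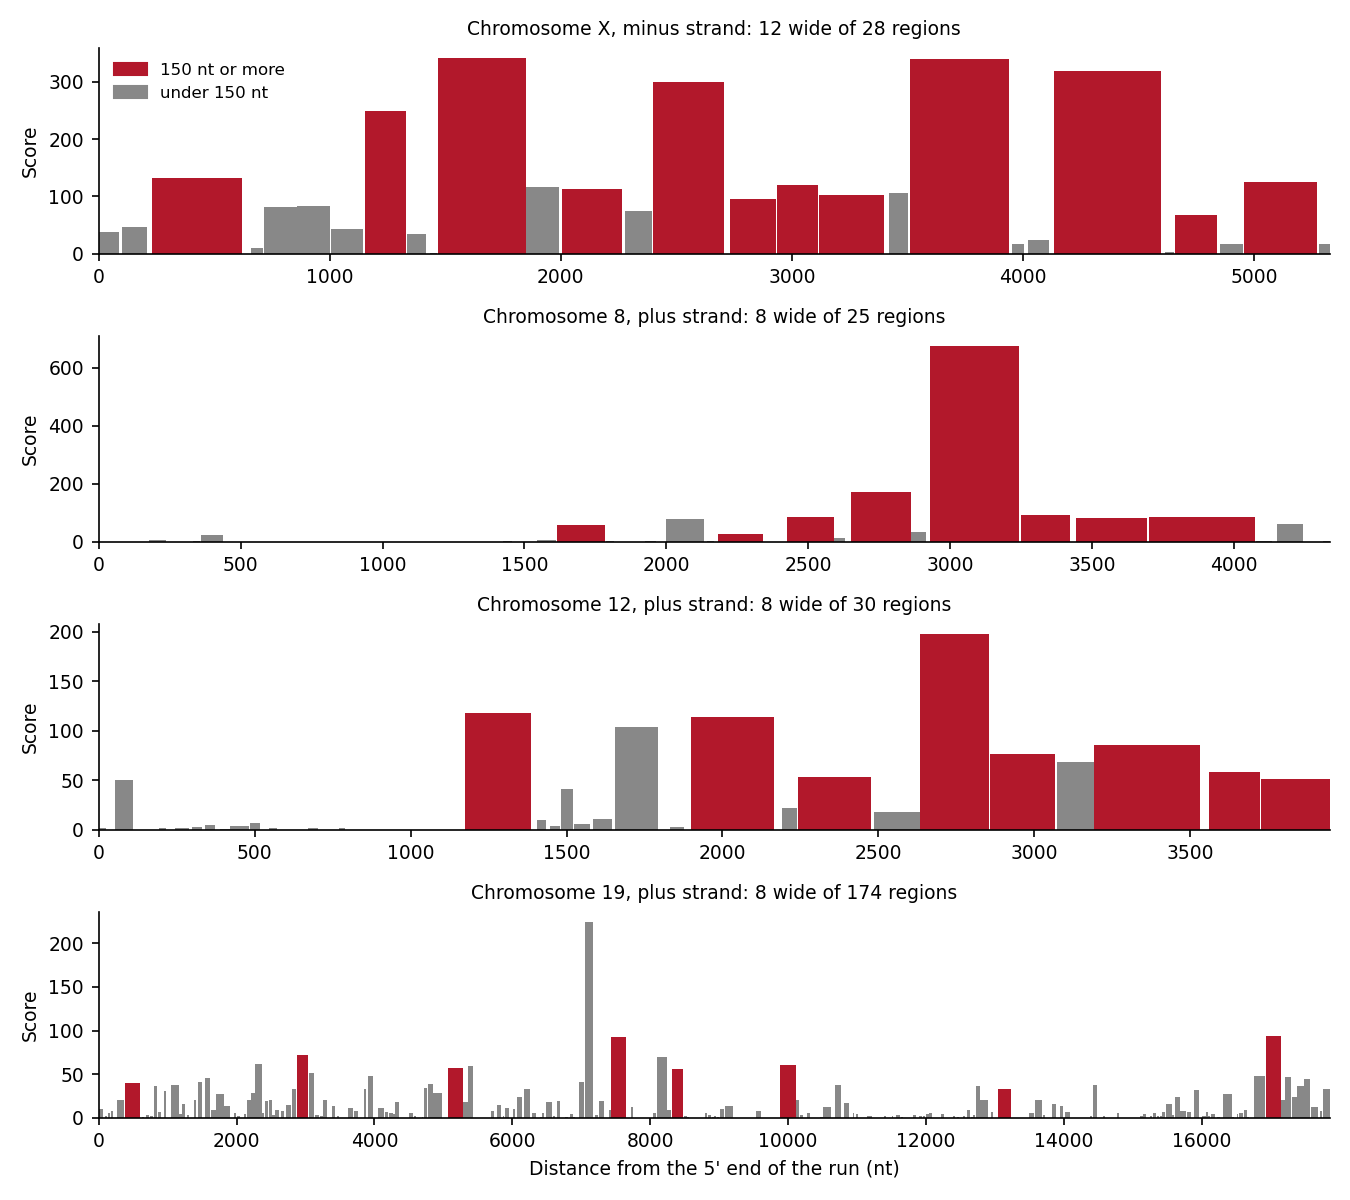
Regions of the 4 runs with 8 or more wide regions, drawn to scale along the run from its 5′ end (x axis, nt) with the deposited score as height; red bars are 150 nt or wider, grey bars narrower. On chromosome X the wide regions fill 67.2% of the run, on chromosomes 8 and 12 they begin 1614 and 1176 nt from the 5′ end, and on chromosome 19 they are scattered among 166 narrower regions.

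In the remaining 4 runs with 5 wide regions each, the median score of the narrower regions was below every score of the wide ones. In chr6:21594079-21599218 (plus strand) they had scores from 69 to 250, beside a median of 3 for 31 narrower regions, and the first began 3150 nt from the 5′ end of a 5140-nt run. In chrX:84525010-84528370 (plus strand) scores ran from 23 to 190, beside a median of 11. In chr5:137086120-137090046 (minus strand) they ran from 65 to 267, beside a median of 6, and 4 of the 5 lay in a block of 1042 nt that was 97.3% covered. In chr19:33869691-33874708 (plus strand) they ran from 46 to 140, beside a median of 6. In these 4 runs the wide regions held 51.2 to 69.4% of the summed score. The highest score of a narrower region was 94, 55, 42 and 30, in the order given. In the runs on chromosomes 6 and X it was above the lowest wide score.

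Blocks of regions joined over gaps of up to 20 nt show how far such cover extended. The 841 regions lay in 780 blocks with a median span of 268 nt (quartiles 193 and 373.5). In 245 blocks (31.4%) the wide region stood by itself. Blocks longer than 500 nt numbered 135 in the nuclear list, and 103 of them held a wide region. All 13 blocks longer than 1000 nt did, and the longest without one spanned 890 nt. A wide region adds its own width to the span of its block, so these counts are not independent of the rule. The chromosome 12 regions of 1574 and 1091 nt each formed such a block by themselves. Beside the chromosome X and chromosome 12 runs above, long blocks included chr21:34929969-34931366 (plus strand, 1398 nt, 11 regions), chr2:20449214-20450305 (minus strand, 1092 nt, 9 regions) and chr1:70716966-70718005 (plus strand, 1040 nt, 11 regions).

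The 17 wide regions alone in their run were a small and mixed group. None was wider than 199 nt, and scores ran from 7 to 1000 with a median of 59 (38 to 132), against 51 (45 to 55) in arrays of 10 to 29 regions and 47 (42 to 52) in arrays of 30 or more. A high score was held by 6 of the 17 (35.3%, 17.3 to 58.7%), against 18.005% (14.6 to 22.01%) and 16.1% (12.5 to 20.5%) in these arrays. The intervals overlap, so no difference can be read from these counts. Besides the compact chromosome 5 and 6 regions at 1000, the high ones were chr6:27263205-27263368 (plus strand, score 166), chr11:18501867-18502065 (minus strand, score 131) and a pair of 193-nt regions on the minus strand of chromosome 8.

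That pair belonged to a group that held 4 of the 17. The 44146 nt of chr8:141551265-141595410 (minus strand) held 16 regions, 5 of them wide. Of the 16, 14 were 81 to 193 nt wide, with scores from 33 to 232, and the other 2 were 19 and 23 nt wide with scores of 1 and 2. The wide regions had, from the 5′ side, widths of 193, 155, 154, 158 and 193 nt and scores of 232, 186, 38, 44 and 132. Gaps ran from 1 to 10471 nt with a median of 1690 nt, so regions covered 4.43% of the span, and no region lay on the other strand there. Within this span, mostly compact regions, far apart and on 1 strand, were thus seen in place of the crowded short regions that surrounded most wide regions. The span starts and ends at a lone wide region, and on its 3′ side the next region of the strand lay 1711 nt away. Further on that side were crowded arrays, chr8:141535703-141542714 with 35 regions and chr8:141530255-141534535 with 34, each with 1 wide region. What lies at these positions was not analysed here.

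Overlap with the opposite strand was rare. It was found for 8 wide regions (0.951%, 0.483 to 1.87%), against 0.306% of all nuclear regions and 0.509% (0.309 to 0.838%) of the regions of 100 to 149 nt. A wider region has more room for an overlap, so these shares are not matched for length. The overlaps were 26 to 63 nt long. The highest score among the 8 was 259, for chr2:68406166-68406348 (minus strand), and the others had scores from 21 to 86. By strand, 442 wide regions were on plus and 399 on minus, or 52.6% on plus (49.2 to 55.9%), against 51.7% of the narrower regions.

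Every nuclear chromosome held wide regions, but at unequal shares of its list. Chromosome 1 held the most, 124, followed by chromosome 12 with 72, chromosome 5 with 71 and chromosome 19 with 62; chromosomes 14 and 18 held 9 each. As a share of a chromosome's regions they ranged from 0.140% on chromosome 14 (0.0738 to 0.266%) to 0.715% on X (0.544 to 0.939%), with a median of 0.381%. Shares above the nuclear 0.397% with intervals that exclude it were found on chromosomes 1 (0.518%), 5 (0.584%), 12 (0.565%) and X. Shares below it were found on chromosomes 2 (0.297%), 3 (0.196%), 4 (0.245%), 9 (0.206%) and 14. Wide regions gather in runs, which these intervals leave out.

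Chromosome X owed its first place to 2 runs. Without the 9 runs that held 5 or more wide regions, chosen after the values were seen, its share was 0.481%, below chromosomes 5 (0.545%), 12 (0.503%), 1 (0.518%), 20 (0.552%) and 21 (0.555%). The same step lowered chromosome 8 from 0.434% to 0.262%. Set against the protein-coding genes that RefSeq lists for GRCh38.p14, chromosome 5 held 7.85 wide regions per 100 genes, chromosome 12 held 7.03, and chromosome 14 held 1.49, with a median of 4.19 over the 23 chromosomes. The number of wide regions rose with the number of all regions of a chromosome (Spearman's rho 0.837, n = 23) and with its number of protein-coding genes (0.763). Chromosome length was not examined, and the parts of these counts cannot be told apart.

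**Figure D4:**
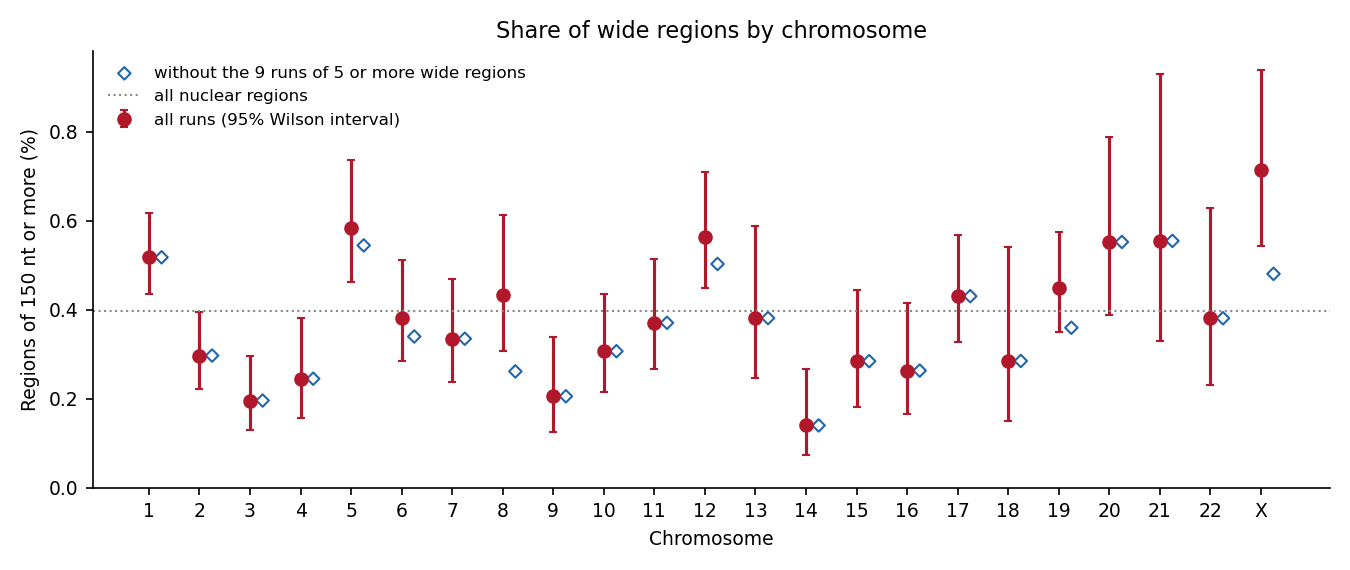
Share of each chromosome's regions that are 150 nt or wider (red points with Wilson 95% intervals), the same without the 9 runs that hold 5 or more wide regions (blue diamonds), and the share over all nuclear regions (dotted line, 0.397%). Chromosome X falls from 0.715 to 0.481% without those runs, and chromosome 14 is the lowest at 0.140%.

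The inner position was spread more evenly in wide regions than in narrower ones. From the 5′ to the 3′ edge, each region was cut into 10 equal bins. Bins 2 to 9 each held between 9.63 and 13.1% of the inner positions, and the bins at the 5′ and 3′ edges held 5.23 and 6.78%. In narrower regions the inner position peaked in the middle, with 19.5% in bin 6. Regions of 100 to 149 nt were already flat, between 9.81 and 13.4% over the same bins. A bin of a wide region is longer than a bin of a short one, so the same distance from an edge falls into different bins.

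As a fraction of the width, the lean of the inner position toward the lower genomic coordinate was small in wide regions. Counted as a fraction of the width from the lower edge, its mean was 0.476 (SE 0.0123, 442 regions) on the plus strand and 0.481 (SE 0.0135, 399 regions) on the minus strand. In narrower regions it was 0.454 and 0.415. The SE treats regions as independent. The same fraction is more nucleotides in a wide region, so these means do not show a smaller lean in nt. The 54 regions of at least 300 nt had means of 0.541 and 0.504.

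**Figure D5:**
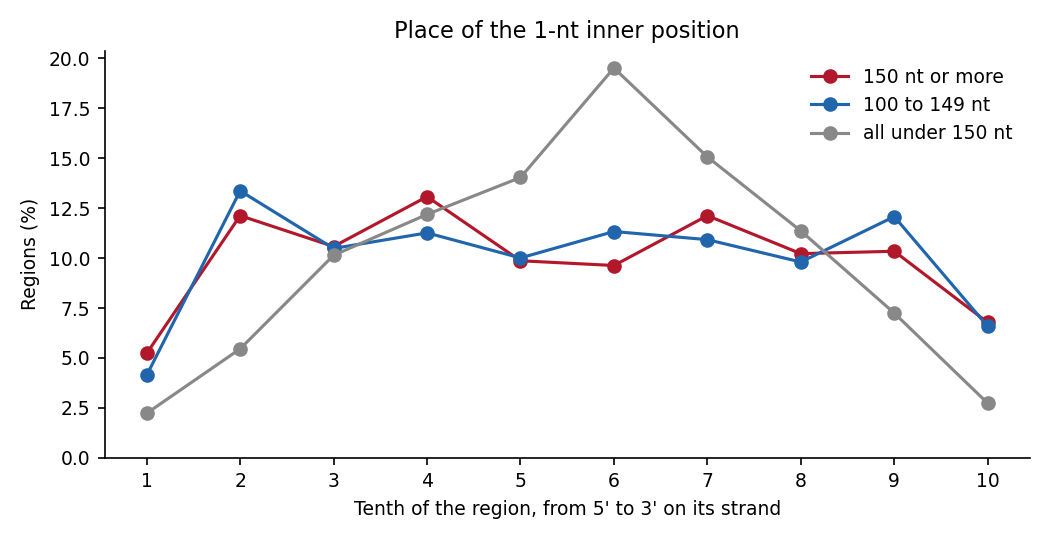
Share of regions whose 1-nt inner position falls in each of 10 equal bins of the region, from its 5′ to its 3′ edge, for regions of 150 nt or more, of 100 to 149 nt, and for all regions under 150 nt. The curve of all narrower regions peaks at 19.5% in bin 6, while the wide regions stay between 9.63 and 13.1% in bins 2 to 9.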

How the data were processed

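The authors deposited 1 list of regions for the series, with an edge, strand, score and 1-nt inner position each. Alignment with BWA 0.5.8c and the build hg19 are named per the submitters' processing notes; per the file headers, the list belongs to a set named AGO_good and passed a filter whose name holds 0.05. The sources used here name neither the region caller nor the exact libraries in the pool. As deposited by the authors, the score is a whole number with no stated unit. Positions are printed counting from 1.

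From these, widths, gaps, runs, blocks, flank cover and opposite-strand overlaps were computed. Shares have Wilson and medians have binomial 95% intervals, which cover counting error only. No test was made, since nothing was measured per library. The functions were checked with 9438 simulated regions, and 7 of 7 checks passed. The check of the inner position only repeated its formula, that of flank cover used a sample of the regions, and that of the median interval used simulated numbers. The members, measures and thresholds were chosen with earlier results of these data known. Regions named are the widest, those of highest score, of highest and lowest score per nt, those at the width limit, and runs with many wide regions; the lone and opposite-strand regions were added after their values were seen. Alternatives changed the width, score and gap limits. Tools were Python 3.11.15 with scipy 1.17.1, pandas 2.3.3, numpy 2.4.6 and matplotlib 3.10.9.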

Additional observations from a re-analysis of the deposited data

How the results depend on the processing

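No paired analysis was possible because no column gives a value per library. Of 30 other settings, 3 of them chosen after seeing the data, 25 moved a value beyond its interval (for the count of regions, beyond 1.5 times), which mostly restates the limit that was changed. A further 3 settings on annotation and bases were not run. The number of wide regions (841) was 3788, 249 and 54 at width minimums of 100, 200 and 300 nt. At these minimums the share of high scores (17.6%) was 7.07, 37.3 and 74.1%, the share of the summed score (5.46%) was 13.6, 2.50 and 0.995%, and the share of covered nt (2.10%) was 6.44, 0.840 and 0.270%. At a minimum of 200 nt the score per 100 nt (25.6) was 31.1 and the share in arrays (87.3%) was 92.4%. With 50 or 200 as the limit of a high score, 49.7 or 4.99% of the wide regions passed it. With scores above 100 set to 100, the share of the summed score was 4.21%. A same-strand neighbour (93.5% within 100 nt) was found for 51.2% within 10 nt, 98.0% within 1000 nt and 88.5% when only regions of score 3 or more counted. Narrower regions had a same-strand neighbour within 10 nt in 16.7% of cases and within 1000 nt in 77.1%. Array membership was 46.5% with run gaps of up to 100 nt, 95.6% with up to 5000 nt, 93.9% with a minimum of 5 regions and 64.7% with 20, both chosen after seeing the data. The array settings and the limit on neighbour scores were run for wide regions only. They give no comparison with other nuclear regions. Read depth is unknown and limits every score.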

Other observations

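The deposited regions carry running numbers with gaps in the series. An unused number stood just before or after 4 of the 841 wide regions (0.476%, Wilson 95% interval 0.185 to 1.22%), 4.13% of the narrower nuclear regions (4.05 to 4.22%) and 2.41% of the narrower ones with a score of at least 7 (2.26 to 2.57%), the lowest score of a wide region. Neither the file nor the labels say what the unused numbers stood for.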
